A study of Arabidopsis thaliana with 6 samples.

Results

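Wild-type (WT) Arabidopsis thaliana seedlings were compared with seedlings of the transgenic set labelled MIF_1, chosen by their titles and genotypes, which gave 4 of the 6 libraries of the study. WT seedlings were of the Col-0 accession. MIF_1 seedlings were Col-0 plants carrying a Myc-tagged MIF in pTA7002, a vector in which dexamethasone, a synthetic glucocorticoid, releases a fusion activator that switches on the transgene. A further set, MIF_3, carried the same construct and gave the other 2 libraries. All 3 groups, WT included, were 7 days old and had grown in long days on sucrose-containing Murashige-Skoog plates with 10 µM dexamethasone, and RNA of whole seedlings was sequenced as poly(A) libraries, 2 per group. Neither an empty-vector control nor seedlings kept off dexamethasone were among the libraries analysed. The labels spell out neither MIF nor the set numbers, and do not say whether replicates came from separate cultures, and the p-values therefore cover only the spread from library to library, which may be technical. No locus of the count table is labelled as the transgene, and its induction was not checked.

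The study's title places an F-box protein upstream of MORF2. F-box proteins are the substrate-binding parts of SCF ubiquitin ligases, which mark proteins for breakdown by the proteasome. MORF2 is one of the plastid proteins needed to change cytidines to uridines in organelle transcripts. Plastids whose gene expression fails signal to the nucleus, where genes for photosynthesis are then less transcribed, a route in which the plastid protein GUN1 and the GOLDEN2-LIKE (GLK) transcription factors take part.

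The libraries held 21404582 and 18262579 counts (WT), 22403469 and 22827857 counts (MIF_1), or 24175475 and 24698636 counts (MIF_3). WT replicate 2 stood apart, with 0.132% of its counts on plastid-encoded loci against 0.0203% to 0.0273% in the other libraries, and 1.04% on rRNA loci against 0.298% to 0.468%. Removing both kinds of loci gave 1623 genes higher and 2034 lower in place of the 1598 and 2014 given below. The first principal component held 53.6% of the variance and separated WT from all transgenic libraries. Markers of both root and shoot were counted in each library, as the label of whole seedlings implies. The 8 reference genes, among them ACT2, UBQ10 and PP2AA3, had a median log2 fold change of 0.07 in MIF_1 against WT. By edgeR 0 of them were called (2 at an unadjusted p under 0.05), and DESeq2 called 1 higher and 1 lower.

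MIF_1 seedlings differed from WT in 3612 of 20438 genes tested, or 17.7% (edgeR quasi-likelihood test with p adjusted after Benjamini and Hochberg and a threshold of 0.05; such genes are said to have been called, risen or fallen). Of these 1598 rose, 7.82% of all genes, and 2014 fell, 9.85%. Changes of at least 2-fold were made by 648 genes that rose, 3.17%, and 515 that fell, 2.52%, and changes of at least 4-fold by 277 and 123. Over all genes tested, the median log2 fold change was 0.01. In every called gene both MIF_1 libraries lay on the same side of both WT libraries, an order seen upward in 30.5% and downward in 28.9% of all tested genes. Leaving out 1 library left 928 genes higher without WT replicate 1, 1005 without WT replicate 2, 639 without MIF_1 replicate 1 and 546 without MIF_1 replicate 2, and 1194, 1089, 776 and 786 lower. Called in all 4 of these fits were 417 genes that rose and 546 that fell. A gene family is the loci whose RefSeq description holds the family's words, which can take in other proteins that share them. Counts of called list and family members stand beside the 7.82% that rose and 9.85% that fell among all genes. Where a count of list or family members moved by over 1.5 times in such a fit, the 4 counts are given in the same order of libraries left out, first both of WT and then both of MIF_1. Levels below are CPM (the usual count-per-million unit, with TMM-scaled library sizes), in replicate 1 and then replicate 2, and each change is a log2 fold change, MIF_1 minus WT, ± its standard error, with the adjusted p from edgeR. Of 303 genes named by rule, 66 overlap another annotated locus, and their counts are less certain, since the strand setting of the counting is not given.

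**Figure D1:**
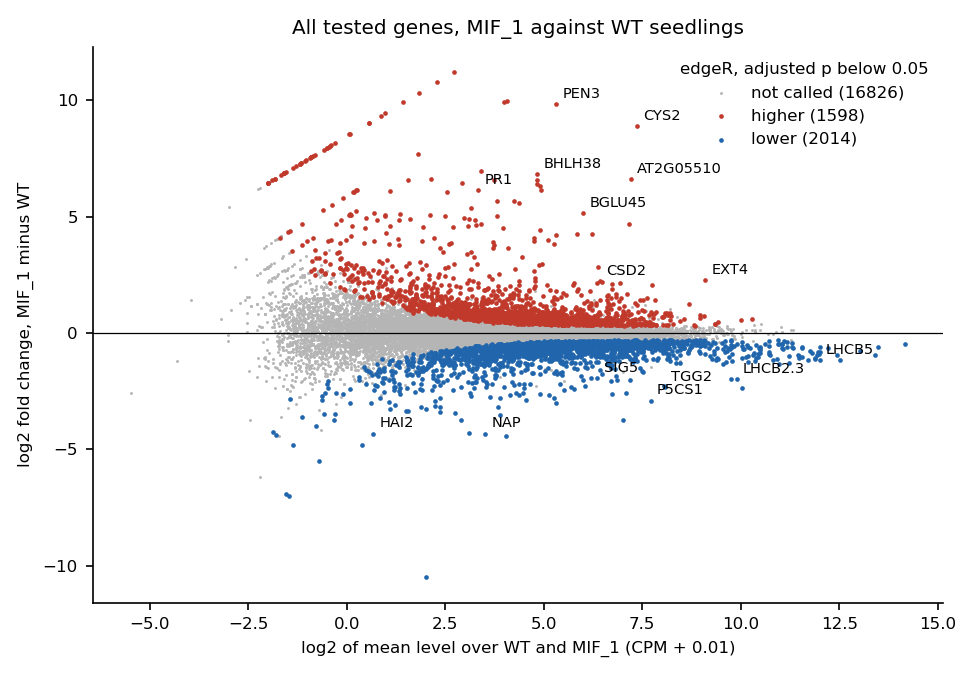
Each point is 1 of 20438 tested genes, placed by the log2 of its mean level over the 4 WT and MIF_1 libraries (CPM + 0.01) and its log2 fold change, MIF_1 minus WT; red points rose, blue points fell and grey points were not called. RBCS1A, RCA and CAB1 are among the points at the far right, below 0, whereas CYS2 at 8.89 and AT2G05510 at 6.61 stand far above 0 at a high level.

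Promoter stretches of 4 called genes, each from a different group described below, are given here because they hold a motif that the respective group is known for. Each is the 250 bases before the start of the gene, 5′ to 3′ on the gene's strand, from RefSeq TAIR10.1, and capitals mark the motif. LHCA4 (chr3:17495034-17495283, minus strand), an antenna gene that fell, holds a G-box, CACGTG, 88 bases before the start. RD26 (chr4:13709171-13709420, minus strand), an abscisic acid response gene that fell, holds the longer form ACGTGGC of the abscisic acid element. That form stood in only 3 of 32 windows of the abscisic acid list. RLP23 (chr2:13862615-13862864, minus strand), an immune receptor gene that rose, holds TTGACT, a W-box bound by WRKY factors, on the other strand. Its stretch also holds another W-box form, TTGACC, which is left in lower case. BHLH38 (chr3:21085246-21085495, minus strand), an iron deficiency gene that rose, holds a G-box.
LHCA4: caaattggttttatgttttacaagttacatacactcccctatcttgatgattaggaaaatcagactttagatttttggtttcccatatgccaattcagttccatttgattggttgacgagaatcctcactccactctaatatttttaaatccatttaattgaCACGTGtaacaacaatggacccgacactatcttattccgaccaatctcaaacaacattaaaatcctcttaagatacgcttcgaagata
RD26: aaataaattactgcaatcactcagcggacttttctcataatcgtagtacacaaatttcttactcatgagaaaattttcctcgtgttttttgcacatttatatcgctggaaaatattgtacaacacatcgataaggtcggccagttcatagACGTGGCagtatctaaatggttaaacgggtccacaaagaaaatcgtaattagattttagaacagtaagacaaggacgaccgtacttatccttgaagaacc
RLP23: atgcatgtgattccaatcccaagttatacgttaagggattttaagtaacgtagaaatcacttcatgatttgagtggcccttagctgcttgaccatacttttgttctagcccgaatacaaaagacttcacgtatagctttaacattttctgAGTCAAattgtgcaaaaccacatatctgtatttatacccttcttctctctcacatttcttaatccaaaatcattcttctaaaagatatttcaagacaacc
BHLH38: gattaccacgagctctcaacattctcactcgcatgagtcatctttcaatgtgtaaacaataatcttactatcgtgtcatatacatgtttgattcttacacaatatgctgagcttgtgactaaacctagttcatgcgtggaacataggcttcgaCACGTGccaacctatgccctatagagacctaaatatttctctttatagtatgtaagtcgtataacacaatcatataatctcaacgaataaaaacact
A match is a description of the letters and not evidence of binding.

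Nuclear genes for the photosynthetic machinery fell together. All 17 tested members of the light-harvesting antenna, which binds chlorophyll and passes light energy to the photosystems, fell, with a median log2 fold change of -1.07, as did all 22 photosystem subunits, with a median of -0.89, and 15 of 16 carbon fixation genes, with a median of -0.59. In bulk seedlings, fewer green cells and less RNA per green cell cannot be told apart. An 18th antenna gene, LHB1B2, was listed at 0 in all 6 libraries. Summed over the antenna list, the level was 73539.6 and 76766 CPM in the WT libraries and 34737 and 38629.9 CPM in the MIF_1 libraries. The summed level of the photosystem subunits was 43582 and 44081 CPM in WT and 22475 and 24859 CPM in MIF_1. The sums in MIF_1 lay far below those of WT for both lists. The photosystem subunits list held 19, 20, 10 and 19 lower in the fits without 1 library, and the carbon fixation list held 11, 12, 8 and 11 lower.

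Among antenna genes, LHCB2.3, for a major protein of the photosystem II antenna, had 1546 and 1489 CPM in WT and 354 and 418 CPM in MIF_1. Its MIF_1 libraries did not come near those of WT, and its log2 fold change of -1.97 ± 0.30, adjusted p = 0.00229, was the lowest of the list. LHCA4, for a protein of the photosystem I antenna, had 5086 and 5375 CPM in WT and 2359 and 2429 CPM in MIF_1, a change of -1.13 ± 0.12, adjusted p = 0.000414. LHCA2, of the same antenna, had 3322 and 3514 CPM in WT and 1327 and 1499.7 CPM in MIF_1 and changed by -1.27 ± 0.17, adjusted p = 0.00118. The minor antenna genes LHCB4.2, LHCB5 and LHCB6 changed by -1.15, -1.15 and -1.15, and the genes CAB1, CAB2 and CAB3 of the major antenna, whose sequences are nearly identical so that reads may be shared among them, by -0.95, -0.95 and -0.86. CAB1 was among the most counted genes that fell, at 13965 and 14553 CPM in WT and 6883 and 7899 CPM in MIF_1. LHB1B1 had the widest error of these, -1.12 ± 0.34, adjusted p = 0.0465. The calls of CAB1 and CAB3 ended without MIF_1 replicate 1; the call of LHB1B1 ended without any 1 of the 4 WT and MIF_1 libraries. LHCA4, LHCB2.3, LHCB4.2, LHCB6 and CAB1 overlap another locus.

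Photosystem genes ranged from PSAD-2, for the subunit at which ferredoxin docks on photosystem I, at 1039 and 1107 CPM in WT and 383 and 477 CPM in MIF_1 (-1.32 ± 0.20, adjusted p = 0.00225), to NPQ4, for the photoprotective protein PsbS, at 2199 and 2171 CPM in WT and 1726 and 1792 CPM in MIF_1 (-0.31 ± 0.08, adjusted p = 0.0319). PSBP-1, for a protein of the oxygen-evolving complex, had 3967 and 4127 CPM in WT and 1942 and 2014 CPM in MIF_1, a change of -1.03 ± 0.12, adjusted p = 0.000543. PSAL and PSAG, for subunits of photosystem I, changed by -1.13 and -1.07. The small-subunit gene RBCS1A of RuBisCO, the carboxylating enzyme, was the most counted gene that fell, at 21235 and 21510.2 CPM in WT and 15138 and 15619 CPM in MIF_1, a change of -0.47 ± 0.09, adjusted p = 0.00824. CA1, for a carbonic anhydrase of the plastid, had 5106 and 5409 CPM in WT and 3010.0 and 2893 CPM in MIF_1 (-0.83 ± 0.11, adjusted p = 0.0014), and RCA, for the activase of RuBisCO, 13598 and 13964 CPM in WT and 8788 and 9529 CPM in MIF_1 (-0.59 ± 0.09, adjusted p = 0.00223). The Calvin-Benson cycle genes GAPB and FBA2 changed by -0.65 and -0.63. The calls of NPQ4 and RBCS1A ended without any 1 of the 4 WT and MIF_1 libraries. PSAD-2, PSBP-1, PSAG, CA1 and RCA overlap another locus.

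Chlorophyll synthesis genes fell too, though less uniformly. Of 23 tested tetrapyrrole genes 14 fell, with a median of -0.40, and 0 rose by edgeR (0 at an unadjusted p under 0.05 and 0 by DESeq2). GUN5, for the large subunit of the magnesium chelatase that commits protoporphyrin to chlorophyll, had 5071 and 5226 CPM in WT and 2760.2 and 2559.8 CPM in MIF_1, a change of -0.95 ± 0.10, adjusted p = 0.000416. GUN4, whose product stimulates that enzyme, had 12.4 and 15.3 CPM in WT and 6.81 and 7.35 CPM in MIF_1 (-0.97 ± 0.18, adjusted p = 0.00601). HEMA1, for the glutamyl-tRNA reductase at the start of the pathway, had 903 and 938 CPM in WT and 422 and 395 CPM in MIF_1 (-1.17 ± 0.23, adjusted p = 0.00767). CAO, for the oxygenase that makes chlorophyll b, changed by -0.78 ± 0.11, adjusted p = 0.00182. Each of these genes had both MIF_1 libraries below both WT libraries. The tetrapyrrole synthesis list held 5, 7, 2 and 4 lower in the fits without 1 library. The call of GUN4 ended without MIF_1 replicate 1; the call of HEMA1 ended without MIF_1 replicate 1 or MIF_1 replicate 2. The 24th member, PORA, did not pass the filter, and GUN4 and CAO overlap another locus.

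Regulators of chloroplast development fell in 7 of 14 tested genes, with a median of -0.39, and 0 rose by edgeR (0 at an unadjusted p under 0.05 and 0 by DESeq2). SIG5, for a sigma factor that steers the plastid RNA polymerase to promoters in light and stress, had 129 and 132 CPM in WT and 34.7 and 33.6 CPM in MIF_1, and its change of -1.93 ± 0.10, adjusted p = 7.89e-06 was among the 8 falls with the smallest p. GLK1 and GLK2 are transcription factors that switch on antenna and chlorophyll genes. GLK1 had 136 and 143 CPM in WT and 60.3 and 49.9 CPM in MIF_1 (-1.34 ± 0.12, adjusted p = 0.000162), and GLK2 had 147 and 184 CPM in WT and 81.8 and 85.0 CPM in MIF_1 (-0.99 ± 0.12, adjusted p = 0.000761). The level of GLK1 in MIF_1 was thus under that of WT in both libraries, as was that of GLK2. GUN1 had 445 and 442 CPM in WT and 352 and 308 CPM in MIF_1, a change of -0.43 ± 0.10, adjusted p = 0.0154. The plastid signalling and chloroplast development list held 4, 3, 4 and 3 lower in the fits without 1 library. The call of GUN1 ended without WT replicate 1, WT replicate 2 or MIF_1 replicate 2. The 15th member, ABI4, did not pass the filter.

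MORF2, the factor of the study's title, did not pass the test. It had 103 and 98.4 CPM in WT and 111 and 107 CPM in MIF_1, a log2 fold change of 0.11 ± 0.10, adjusted p = 0.471, and the MIF_1 libraries were slightly above those of WT. Of 22 organelle RNA editing genes 3 rose, with a median over the list of 0.11, and 0 fell by edgeR (1 at an unadjusted p under 0.05 and 0 by DESeq2). MORF1, whose product acts in mitochondria, had 31 and 29.0 CPM in WT and 40.5 and 37.7 CPM in MIF_1 (0.38 ± 0.12, adjusted p = 0.047). MORF6, also of mitochondria, had 26.7 and 23.8 CPM in WT and 33.8 and 33.9 CPM in MIF_1 (0.42 ± 0.12, adjusted p = 0.0417). OTP81, for a protein that recognises editing sites of plastids, had 6.57 and 6.15 CPM in WT and 9.70 and 12.7 CPM in MIF_1 (0.81 ± 0.22, adjusted p = 0.0302). These rises were small. MORF9, which like MORF2 acts in plastids, had 120.3 and 116 CPM in WT and 124 and 124 CPM in MIF_1 and a log2 fold change of 0.06 ± 0.10, adjusted p = 0.714. The calls of MORF1, MORF6 and OTP81 ended without any 1 of the 4 WT and MIF_1 libraries. OTP81 overlaps another locus. Counts say nothing of the amount of MORF2 protein or of editing. Among 505 tested loci described as pentatricopeptide or tetratricopeptide repeat proteins, 15 rose and 17 fell. Of these, 252 were described as pentatricopeptide repeat proteins, a family with many members that bind organelle RNA, and of them 6 rose and 5 fell, with 4, 1, 1 and 0 higher and 3, 4, 1 and 4 lower in the fits without 1 library. The organelle RNA editing list held 1, 1, 0 and 0 higher in the fits without 1 library, and the loci of both repeat kinds held 6, 8, 2 and 0 higher and 9, 10, 6 and 8 lower.

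**Figure D2:**
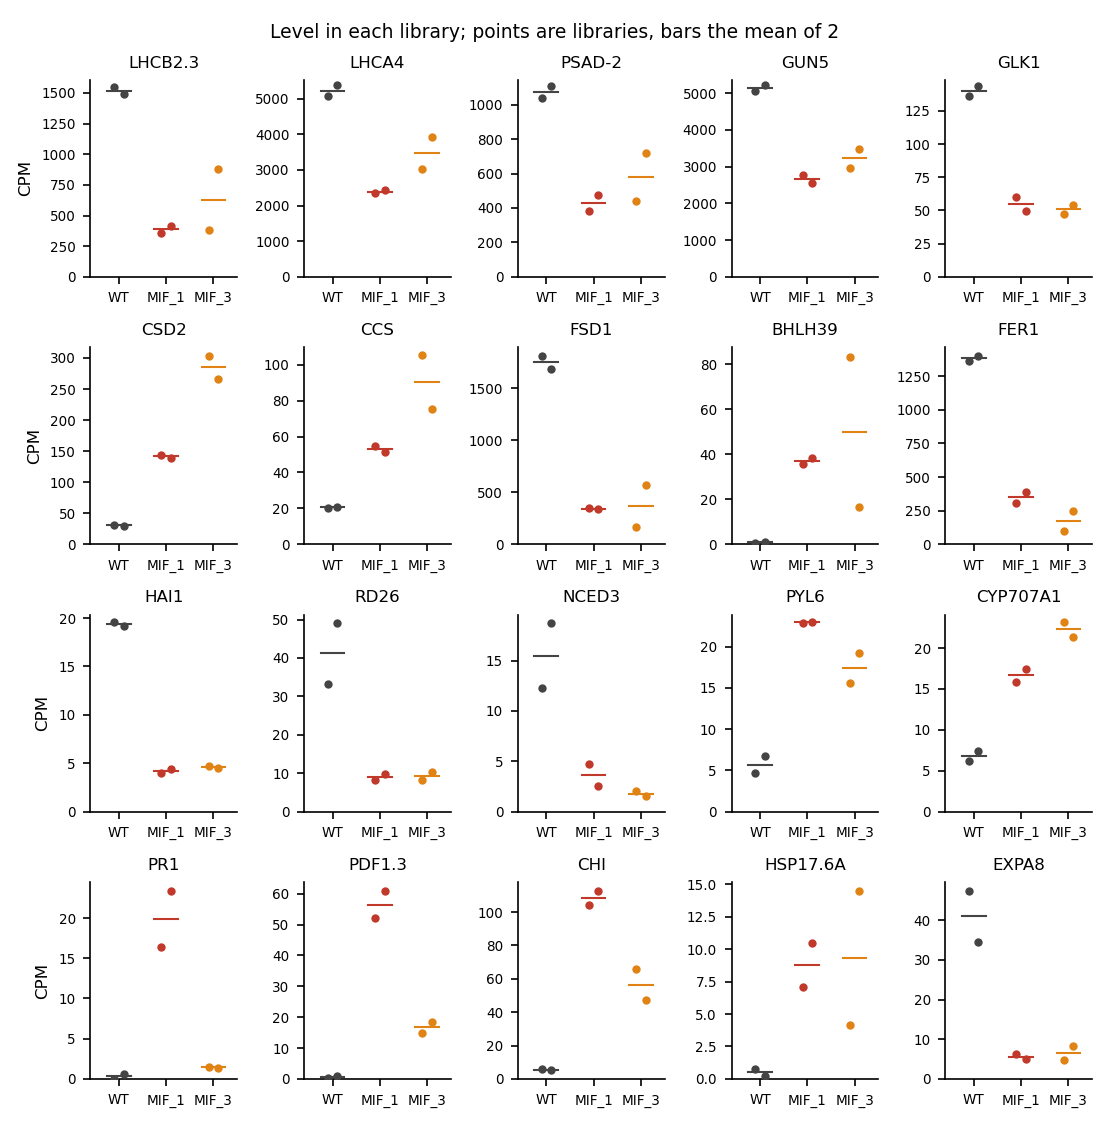
Level in CPM of 20 genes in each of the 6 libraries, with linear axes from 0; points are libraries and bars the means of 2. LHCB2.3, LHCA4, PSAD-2, GUN5, GLK1, FSD1, FER1, HAI1, RD26, NCED3 and EXPA8 lie lower in MIF_1 than in WT, and the other 9 genes lie higher, with no overlap between WT and MIF_1 in any panel. The MIF_3 libraries of BHLH39 lie far apart, at 83.3 and 16.4 CPM.

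Genes of defence against microbes were among the largest rises, but the salicylic acid list itself was divided. Of its 18 tested members 6 rose and 3 fell, with a median of 0.33. With the stricter low-count filter 4 were higher and 3 lower. PR1, for a pathogenesis-related protein that marks salicylic acid responses, had 0 and 0.603 CPM in WT and 16.4 and 23.3 CPM in MIF_1. Hardly any PR1 was counted in WT, and its change was 6.14 ± 0.57, adjusted p = 0.000186. RLP23, for a receptor of microbial peptides, had 0.201 and 0.965 CPM in WT and 15.5 and 17.61 CPM in MIF_1 (4.88 ± 0.42, adjusted p = 0.000124). SARD1, for a regulator that activates salicylic acid synthesis, had 0.652 and 3.01 CPM in WT and 19.0 and 14.99 CPM in MIF_1 (3.26 ± 0.44, adjusted p = 0.0014), and PBS3, for an enzyme of that synthesis, 1.05 and 1.45 CPM in WT and 4.71 and 4.94 CPM in MIF_1 (1.95 ± 0.35, adjusted p = 0.00478). SARD1 was thus the more strongly counted in MIF_1. FMO1, for the enzyme that makes N-hydroxypipecolic acid, a signal of systemic resistance, had 0 and 0.181 CPM in WT and 1.97 and 3.45 CPM in MIF_1 (4.94 ± 0.85, adjusted p = 0.00424), and BGL2, for a glucanase, 0.351 and 0.301 CPM in WT and 1.85 and 1.70 CPM in MIF_1 (2.42 ± 0.61, adjusted p = 0.0232). The 3 that fell were genes for WRKY transcription factors. WRKY70 had 20.1 and 32.9 CPM in WT and 5.00 and 5.48 CPM in MIF_1 (-2.33 ± 0.24, adjusted p = 0.000311), and WRKY40 and WRKY33 changed by -0.98 and -0.97. The salicylic acid and defence list held 5, 5, 5 and 3 higher and 3, 1, 1 and 1 lower in the fits without 1 library. The calls of PBS3 and FMO1 ended without MIF_1 replicate 2. The call of BGL2 ended without any 1 of the 4 WT and MIF_1 libraries. The calls of WRKY40 and WRKY33 ended without WT replicate 2, MIF_1 replicate 1 or MIF_1 replicate 2. The last of 19 members, ALD1, did not pass the filter. RLP23, SARD1, WRKY33 and WRKY40 overlap another locus.

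Some genes of secreted antimicrobial proteins rose from a low WT level. Of 113 defensin-like genes 13 passed the low-count filter, and of these 7 rose and 2 fell. The filter can keep a gene that is counted in only 1 group. Members near 0 in WT were thus tested only where a transgenic group was higher, and the count of rises partly follows from the filter. With the stricter filter 4 were higher and 2 lower, and with no filter 7 and 3. PDF1.3, for a plant defensin, had 0.351 and 1.02 CPM in WT and 52.0 and 60.7 CPM in MIF_1 (6.402 ± 0.29, adjusted p = 3.7e-06), and PDF1.2, for a defensin used as a marker of jasmonate and ethylene responses, 0.0502 and 0.301 CPM in WT and 17.9 and 24.3 CPM in MIF_1 (6.96 ± 0.61, adjusted p = 0.000131). In the opposite direction, AT3G59930 had 40.7 and 21.9 CPM in WT and 1.68 and 1.205 CPM in MIF_1 (-4.44 ± 0.59, adjusted p = 0.00125), and AT5G33355 had 12.1 and 3.92 CPM in WT and no count in either MIF_1 library. PDF1.2 and PDF1.3 have close relatives among which reads may be shared. A run of neighbouring chitinase genes rose as well: AT2G43590 had 10.2 and 11.1 CPM in WT and 246 and 307 CPM in MIF_1 (4.70 ± 0.21, adjusted p = 3.46e-06), CHI (AT2G43570) 6.07 and 5.12 CPM in WT and 104 and 113 CPM in MIF_1 (4.27 ± 0.18, adjusted p = 3.46e-06), and AT2G43580, with no count in WT, 6.85 and 7.27 CPM in MIF_1. Plant defensins held 5, 4, 4 and 3 higher and 2, 3, 1 and 1 lower in the fits without 1 library. The call of AT5G33355 ended without MIF_1 replicate 1 or MIF_1 replicate 2.

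CYS2, for a phytocystatin that inhibits cysteine proteases, combined a large change with a high level, at 0.853 and 0.482 CPM in WT and 313 and 341 CPM in MIF_1 (8.89 ± 0.26, adjusted p = 1.57e-07); it overlaps another locus. AT2G05510, for a glycine-rich protein, had 3.06 and 2.95 CPM in WT and 267 and 323 CPM in MIF_1 and the smallest p of all genes that rose (6.61 ± 0.15, adjusted p = 3.42e-08). Further rises with small p were those of BGLU45, for a beta-glucosidase of monolignol glucosides that overlaps another locus, at 3.81 and 3.07 CPM in WT and 120.4 and 129 CPM in MIF_1 (5.17 ± 0.14, adjusted p = 1.13e-07), HO4, for a heme oxygenase, at 0.251 and 0.301 CPM in WT and 23.8 and 29.4 CPM in MIF_1 (6.57 ± 0.30, adjusted p = 3.7e-06), and NIT2, for a nitrilase, at 18.6 and 22.9 CPM in WT and 145 and 148 CPM in MIF_1 (2.82 ± 0.12, adjusted p = 3.46e-06). CYS2 and HO4 were below 1 CPM in both WT libraries. LURP1, known for its induction by an oomycete in resistant plants, had 1 count in WT and 1606 in MIF_1, a ratio of 1230 (exact 95% interval 220.0 to 48400, counting error only).

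Among families of defence and cell wall enzymes, 16 of 57 class III peroxidases rose and 3 fell, and 7 of 31 cysteine-rich receptor kinases rose and 2 fell. Of 48 glutathione S-transferases 12 rose and 5 fell. WRKY factors, which bind W-boxes, rose in 16 of 55 and fell in 4, with WRKY29 at 2.91 and 3.44 CPM in WT and 12.8 and 17.4 CPM in MIF_1 (2.25 ± 0.23, adjusted p = 0.000296) and WRKY36 at 8.53 and 9.95 CPM in WT and 19.9 and 22.7 CPM in MIF_1 (1.21 ± 0.16, adjusted p = 0.00138). NAC factors rose in 17 of 84 and fell in 5. NAC053, known to regulate proteasome genes, had 16.2 and 15.3 CPM in WT and 53.5 and 58.6 CPM in MIF_1, and its level in MIF_1 exceeded that in WT in both libraries (1.83 ± 0.12, adjusted p = 2.17e-05). Of 43 loci with the word proteasome in their description, which include COP9 signalosome subunits such as COP8, 3 rose, and the median was 0.10. That share of 6.98% was no larger than the 7.82% of all genes that rose. The 3 loci were RPT5B, PAA2 and PA200, which changed by 0.54, 0.51 and 0.43. The peroxidase PA2 had 2.56 and 3.32 CPM in WT and 11.8 and 11.4 CPM in MIF_1 (1.99 ± 0.23, adjusted p = 0.00053), and CRK30 5.37 and 6.27 CPM in WT and 21.3 and 19.6 CPM in MIF_1 (1.82 ± 0.24, adjusted p = 0.00122). Class III peroxidases held 17, 11, 10 and 7 higher and 3, 1, 1 and 1 lower in the fits without 1 library, and cysteine-rich receptor kinases held 3, 9, 2 and 2 higher and 1, 0, 0 and 0 lower. Glutathione S-transferases held 9, 8, 6 and 5 higher and 2, 1, 1 and 2 lower in the fits without 1 library, and WRKY factors held 15, 13, 6 and 4 higher and 3, 1, 1 and 1 lower. NAC factors held 10, 11, 9 and 6 higher and 4, 2, 2 and 2 lower in the fits without 1 library, and loci described by the proteasome held 2, 0, 1 and 1 higher. The call of RPT5B ended without WT replicate 2, MIF_1 replicate 1 or MIF_1 replicate 2. The call of PAA2 ended without WT replicate 2 or MIF_1 replicate 2. The call of PA200 ended without WT replicate 1, WT replicate 2 or MIF_1 replicate 1. WRKY29 overlaps another locus.

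Calls in the lists of other hormones ranged from 4 of 22 tested jasmonate genes to 8 of 21 gibberellin genes, beside 17.7% of all genes. Of 22 tested jasmonate genes 3 rose and 1 fell (median 0.14). Beside PDF1.2, given above, these were ORA59, for an ERF factor where jasmonate and ethylene signals meet, at 1.25 and 2.05 CPM in WT and 6.596 and 6.65 CPM in MIF_1 (2.01 ± 0.37, adjusted p = 0.0055), and JAZ6, for a repressor of the pathway, with 0.87 ± 0.19, adjusted p = 0.0124. JAZ9, for another repressor, fell, with -0.95 ± 0.24, adjusted p = 0.0254. With the 4 libraries compared alone 3 jasmonate genes were higher and 5 lower. Summed over the list the level was 1008.5 and 1163.0 CPM in WT and 680.5 and 754.6 CPM in MIF_1. The MIF_3 libraries, which enter the spread of the main fit, were far apart, at 671.6 and 2068.8 CPM. MYC2 was listed at 0 in all 6 libraries. CYP94B3, for a P450 that inactivates jasmonoyl-isoleucine, had 1.56 and 3.50 CPM in WT and 32.8 and 30.3 CPM in MIF_1 (3.67 ± 0.25, adjusted p = 3e-05). In MIF_1 both CYP94B3 libraries lay far above both of WT. Of 17 ethylene genes 3 rose and 3 fell. ACS6, for the enzyme that makes the ethylene precursor, had 133 and 174 CPM in WT and 57.1 and 51.8 CPM in MIF_1 (-1.49 ± 0.13, adjusted p = 0.000144), whereas ACO1, for the oxidase that makes ethylene, had 19.2 and 16.0 CPM in WT and 33.5 and 31.2 CPM in MIF_1 (0.88 ± 0.13, adjusted p = 0.00184). Cytokinin genes rose in 4 of 15 and fell in 1, and ARR6, for a type-A response regulator, had 8.33 and 10.4 CPM in WT and 25.3 and 25.8 CPM in MIF_1 (1.46 ± 0.21, adjusted p = 0.00174). Of 24 auxin genes 1 rose and 4 fell, with the auxin receptor gene TIR1 at 119 and 130.1 CPM in WT and 81.1 and 77.1 CPM in MIF_1 (-0.66 ± 0.10, adjusted p = 0.00222) and the transport gene PIN7 changing by -0.64 ± 0.11, adjusted p = 0.00398. Of 12 brassinosteroid genes 2 rose and 1 fell. Gibberellin genes rose in 2 of 21 and fell in 6, among them the DELLA repressor gene RGA at 111 and 117 CPM in WT and 75.9 and 70.3 CPM in MIF_1 (-0.64 ± 0.10, adjusted p = 0.00323) and GA3OX2, for an enzyme that makes active gibberellin, at 5.12 and 3.32 CPM in WT and 0.924 and 0.582 CPM in MIF_1 (-2.48 ± 0.46, adjusted p = 0.00575). The jasmonate list held 2, 3, 2 and 1 higher and 2, 0, 0 and 1 lower in the fits without 1 library, and the ethylene list held 1, 2, 2 and 1 higher and 3, 1, 1 and 1 lower. The cytokinin list held 2, 2, 3 and 1 higher and 0, 0, 0 and 0 lower in the fits without 1 library, and the auxin list held 1, 0, 0 and 0 higher and 2, 4, 2 and 3 lower. The brassinosteroid list held 0, 0, 0 and 0 higher and 1, 0, 0 and 0 lower in the fits without 1 library, and the gibberellin list held 1, 1, 2 and 1 higher and 3, 4, 2 and 1 lower. The calls of ORA59 and GA3OX2 ended without MIF_1 replicate 2. The call of JAZ6 ended without WT replicate 1, MIF_1 replicate 1 or MIF_1 replicate 2. The call of JAZ9 ended without any 1 of the 4 WT and MIF_1 libraries. ARR6 overlaps another locus.

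Of 19 tested iron genes 8 rose and 5 fell, with a median of 0.99. The 4 genes for the Ib bHLH factors, which act with FIT to switch on iron uptake, rose. BHLH38 had 0.401 and 0.603 CPM in WT and 56.5 and 56.4 CPM in MIF_1 (6.82 ± 1.05, adjusted p = 0.0024) and BHLH39 0.401 and 1.09 CPM in WT and 35.8 and 38.2 CPM in MIF_1 (5.68 ± 0.83, adjusted p = 0.00201). BHLH100 had 0.201 and 1.02 CPM in WT and 53.2 and 59.9 CPM in MIF_1 (6.596 ± 1.03, adjusted p = 0.00269) and BHLH101 0.502 and 1.15 CPM in WT and 11.2 and 11.4 CPM in MIF_1 (3.81 ± 0.80, adjusted p = 0.0104). All were low in WT. The fit takes 1 spread from all 3 groups, and the MIF_3 libraries were far apart, at 126 and 16.5 CPM of BHLH38. FIT1 itself was not called, at 8.73 and 4.52 CPM in WT and 8.11 and 13.2 CPM in MIF_1 (0.67 ± 0.32, adjusted p = 0.192). FRO2, for the ferric reductase of the root surface, had 84.5 and 31.05 CPM in WT and 140.4 and 144 CPM in MIF_1 (1.29 ± 0.34, adjusted p = 0.0269), and IRT1, for the iron transporter beside it, 89.9 and 44.7 CPM in WT and 165 and 182 CPM in MIF_1 (1.36 ± 0.25, adjusted p = 0.00598). FRO3, for a mitochondrial reductase, had 30.5 and 29.6 CPM in WT and 146 and 119 CPM in MIF_1 (2.14 ± 0.42, adjusted p = 0.00762). NAS2, for a nicotianamine synthase, changed by 0.75 ± 0.18, adjusted p = 0.0178. WT replicate 2 was the lower of the WT libraries in FRO2 and IRT1. The call of BHLH101 ended without WT replicate 1, MIF_1 replicate 1 or MIF_1 replicate 2. The call of FRO2 ended without MIF_1 replicate 1 or MIF_1 replicate 2. The call of IRT1 ended without MIF_1 replicate 2. The call of FRO3 ended without MIF_1 replicate 1. The call of NAS2 ended without WT replicate 2, MIF_1 replicate 1 or MIF_1 replicate 2. BHLH38, BHLH101 and FRO3 overlap another locus.

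The iron genes that fell were those of storage and internal transport. FER1, for the main leaf ferritin, which stores iron in plastids, had 1367 and 1399.9 CPM in WT and 309 and 387 CPM in MIF_1 (-1.99 ± 0.34, adjusted p = 0.00387). FER3 had 127 and 118 CPM in WT and 60.4 and 60.7 CPM in MIF_1 (-1.01 ± 0.17, adjusted p = 0.00414) and FER4 66.7 and 65.3 CPM in WT and 26.3 and 30.4 CPM in MIF_1 (-1.22 ± 0.32, adjusted p = 0.028). YSL1 and YSL2, for transporters of iron bound to nicotianamine, changed by -1.06 ± 0.21, adjusted p = 0.00737 and -0.82 ± 0.11, adjusted p = 0.00139. Of the 8 members whose promoter window held a G-box, as in the stretch of BHLH38 above, 5 were called. Over all 19 tested members 8 rose and 5 fell, so members with the motif were not called more often than the list. The iron list held 7, 7, 4 and 4 higher and 4, 4, 1 and 2 lower in the fits without 1 library. The call of FER1 ended without MIF_1 replicate 1. The calls of FER3 and YSL1 ended without MIF_1 replicate 1 or MIF_1 replicate 2. The call of FER4 ended without any 1 of the 4 WT and MIF_1 libraries. FER1, FER4 and YSL2 overlap another locus. Root genes among them were read beside the 12 root markers, of which 1 rose (EXPA7) and 0 fell by edgeR (0 at an unadjusted p under 0.05 and 0 by DESeq2), with a median of 0.40 and a summed level of 2303 and 2128 CPM in WT and 2171 and 2404 CPM in MIF_1; none of the 12 was at 0, and their part in the iron result was not tested. The call of EXPA7 ended without WT replicate 2, MIF_1 replicate 1 or MIF_1 replicate 2. EXPA7 overlaps another locus.

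Of the 6 superoxide dismutase genes in the reactive oxygen list, CSD1 and CSD2 rose and FSD1 fell. FSD1, for an iron superoxide dismutase, had 1811 and 1689 CPM in WT and 347 and 337 CPM in MIF_1 (-2.35 ± 0.42, adjusted p = 0.00523). CSD2, for the plastid copper-zinc enzyme, had 30.9 and 29.5 CPM in WT and 144 and 139 CPM in MIF_1 (2.23 ± 0.11, adjusted p = 4.86e-06). CSD1, for the cytosolic one, had 43.9 and 46.8 CPM in WT and 163 and 173 CPM in MIF_1 (1.89 ± 0.11, adjusted p = 1.21e-05). The other genes of both forms were not called, with -0.06 ± 0.14, adjusted p = 0.815 for CSD3, -0.25 ± 0.11, adjusted p = 0.154 for FSD2 and -0.23 ± 0.10, adjusted p = 0.141 for FSD3. CCS, for the chaperone that loads them with copper, had 20.3 and 20.7 CPM in WT and 54.8 and 51.4 CPM in MIF_1 (1.37 ± 0.16, adjusted p = 0.000538). Transcripts of CSD1, CSD2 and CCS are known targets of the miRNA miR398, which is made when copper is short, and FSD1 is known to be switched on in the same state; miRNAs were not measured in these libraries. CSD2 and CCS were called higher in MIF_3 than in MIF_1, by 1.00 ± 0.10 for CSD2 (adjusted p = 0.00202) and 0.77 ± 0.15 for CCS (adjusted p = 0.0358). In the test of MIF_3 against MIF_1, the call of CSD2 ended without MIF_1 replicate 1 or MIF_1 replicate 2; the call of CCS ended without MIF_1 replicate 1, MIF_1 replicate 2 or MIF_3 replicate 1. In the whole reactive oxygen list 6 of 18 rose and 4 fell, a median of -0.15. RBOHD, for the oxidase of the plasma membrane that makes superoxide, had 96.9 and 102 CPM in WT and 187 and 149.95 CPM in MIF_1 (0.76 ± 0.12, adjusted p = 0.00301), and the catalase gene CAT3 789.9 and 891 CPM in WT and 379 and 403 CPM in MIF_1 (-1.104 ± 0.24, adjusted p = 0.0113). TAPX, for a thylakoid ascorbate peroxidase, changed by -0.76 ± 0.12, adjusted p = 0.00229. The reactive oxygen list held 3, 2, 1 and 1 lower in the fits without 1 library. The call of FSD1 ended without MIF_1 replicate 1 or MIF_1 replicate 2; the call of CAT3 ended without WT replicate 2, MIF_1 replicate 1 or MIF_1 replicate 2. CSD1 overlaps another locus.

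More of the tested abscisic acid genes fell than rose. Of 32 members 15 fell and 5 rose, with a median of -0.64. NCED3, for the enzyme that limits abscisic acid synthesis in drought, had 12.3 and 18.7 CPM in WT and 4.75 and 2.49 CPM in MIF_1 (-2.09 ± 0.32, adjusted p = 0.00249), and ABA1, for zeaxanthin epoxidase, 798 and 864 CPM in WT and 427 and 456 CPM in MIF_1 (-0.91 ± 0.09, adjusted p = 0.000337). CYP707A1, for a hydroxylase that breaks the hormone down, had 6.17 and 7.41 CPM in WT and 15.9 and 17.4 CPM in MIF_1 (1.296 ± 0.15, adjusted p = 0.000696), while CYP707A2, for another, changed by -1.301 ± 0.27, adjusted p = 0.0102. CYP707A3 and CYP707A4 were not called. Of the 8 receptor genes in the list 4 rose, 1 fell and 3 were not called. PYL4 had 45.4 and 51.4 CPM in WT and 138 and 158 CPM in MIF_1 (1.61 ± 0.11, adjusted p = 3.66e-05). PYL5 had 18.4 and 28.2 CPM in WT and 75.2 and 68.1 CPM in MIF_1 (1.63 ± 0.19, adjusted p = 0.000693), and PYL6 4.72 and 6.69 CPM in WT and 22.9 and 23.0 CPM in MIF_1 (2.02 ± 0.19, adjusted p = 0.000196). PYR1 rose by 0.48 ± 0.11, adjusted p = 0.0126, and PYL9 fell, with -0.92 ± 0.17, adjusted p = 0.00598. PYL1, PYL2 and PYL8 were not called. The call of CYP707A2 ended without WT replicate 2 or MIF_1 replicate 2. The call of PYR1 ended without WT replicate 1, MIF_1 replicate 1 or MIF_1 replicate 2. The call of PYL9 ended without MIF_1 replicate 2.

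The clade A phosphatases hold the signal off in the absence of hormone, and their genes are themselves switched on by it. HAI1 had 19.6 and 19.2 CPM in WT and 3.95 and 4.44 CPM in MIF_1 (-2.20 ± 0.17, adjusted p = 7.53e-05), and HAI2 3.26 and 2.77 CPM in WT and 0.0420 and 0.249 CPM in MIF_1 (-4.32 ± 0.66, adjusted p = 0.00234). ABI1 had 81.0 and 75.7 CPM in WT and 32.4 and 32.6 CPM in MIF_1 (-1.27 ± 0.11, adjusted p = 0.000139). None of these had a MIF_1 library within the range of WT. PP2CA and HAB1 changed by -1.24 ± 0.14, adjusted p = 0.00061 and -0.88 ± 0.13, adjusted p = 0.00183. RD26, for a NAC factor of the response, whose promoter is shown above, had 33.2 and 49.2 CPM in WT and 8.15 and 9.80 CPM in MIF_1 (-2.20 ± 0.21, adjusted p = 0.000202). ABF3, for a bZIP factor that binds the abscisic acid element, had 164 and 170.5 CPM in WT and 70.1 and 76.9 CPM in MIF_1 (-1.19 ± 0.14, adjusted p = 0.000585), and RAB18, for a dehydrin, 16.5 and 25.6 CPM in WT and 4.33 and 7.68 CPM in MIF_1 (-1.80 ± 0.29, adjusted p = 0.00307). Of 18 cold and dehydration genes 5 fell, and 0 rose by edgeR (1 at an unadjusted p under 0.05 and 1 by DESeq2). P5CS1, for the enzyme that limits proline synthesis, had 326 and 416 CPM in WT and 39.3 and 59.9 CPM in MIF_1 (-2.90 ± 0.19, adjusted p = 2.63e-05), and RD20, GOLS2, KIN1 and RD29A changed by -2.19, -1.59, -1.57 and -1.24. NCED4, for a dioxygenase that cleaves carotenoids, fell from 181 and 182 to 25.9 and 33.7 CPM (-2.61 ± 0.17, adjusted p = 2.14e-05), and PUB19, for a U-box ubiquitin ligase of drought responses, from 19.8 and 35.1 to 2.56 and 2.16 CPM (-3.53 ± 0.32, adjusted p = 0.000153). The call of RD20 ended without MIF_1 replicate 1. ABI1, ABF3, RAB18 and P5CS1 overlap another locus. HAI3, NCED5, NCED9 and ABI3 did not pass the filter. ABI3, for a factor of seed maturation, had no count in WT, 25 and 9 counts in MIF_1 and no count in MIF_3.

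Of 16 tested heat shock genes 5 rose, 3 fell and 8 were not called. Small heat shock proteins are chaperones that hold unfolded proteins. HSP17.6II had 1.40 and 1.63 CPM in WT and 10.7 and 12.7 CPM in MIF_1 (2.95 ± 0.45, adjusted p = 0.00245), and HSP17.6A 0.752 and 0.241 CPM in WT and 7.06 and 10.5 CPM in MIF_1 (4.07 ± 0.68, adjusted p = 0.0037). HSP23.6-MITO, of mitochondria, had 0.100 and 0 CPM in WT and 2.27 and 1.74 CPM in MIF_1 (5.07 ± 0.80, adjusted p = 0.00276). HSP22.0 had no count in WT and 1.26 and 1.95 CPM in MIF_1. Both HSP23.6-MITO and HSP22.0 passed the low-count filter only through transgenic libraries, so their direction partly follows from the filter. With the stricter filter 3 heat shock genes were higher and 3 lower. The fifth that rose was HSFB1, for a class B heat shock factor, with 0.49 ± 0.10, adjusted p = 0.00821. HSFB2A, for a heat shock factor that represses, had 30.4 and 28.9 CPM in WT and 6.85 and 7.02 CPM in MIF_1 (-2.10 ± 0.16, adjusted p = 5.94e-05), and MBF1C, for a coactivator of heat responses, 21.8 and 16.1 CPM in WT and 7.31 and 5.86 CPM in MIF_1 (-1.53 ± 0.23, adjusted p = 0.00229). HSFB2B, for a relative of HSFB2A, fell, with -1.18 ± 0.26, adjusted p = 0.0132. In the family of 36 tested small heat shock genes 7 rose, 1 fell and 28 were not called, with a median of 0.05. With the stricter filter 5 of the family were higher and 1 lower. Of 8 genes of mitochondrial dysfunction 2 rose and 1 fell, with AOX1A, for the alternative oxidase, at 31.4 and 36.5 CPM in WT and 48.0 and 50.4 CPM in MIF_1 (0.54 ± 0.12, adjusted p = 0.0125) and NDA1, for a light-regulated mitochondrial NAD(P)H dehydrogenase, at 192 and 179.6 CPM in WT and 109 and 117 CPM in MIF_1 (-0.72 ± 0.10, adjusted p = 0.00148). The heat shock list held 5, 4, 5 and 3 higher in the fits without 1 library, and small heat shock proteins held 1, 0, 0 and 0 lower. The mitochondrial dysfunction list held 0, 1, 0 and 0 higher and 2, 1, 1 and 1 lower in the fits without 1 library. The call of HSP22.0 ended without MIF_1 replicate 2. The call of HSFB1 ended without WT replicate 2 or MIF_1 replicate 2. The call of HSFB2B ended without WT replicate 1 or MIF_1 replicate 2. The call of AOX1A ended without WT replicate 1, MIF_1 replicate 1 or MIF_1 replicate 2. MBF1C overlaps another locus.

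**Figure D3:**
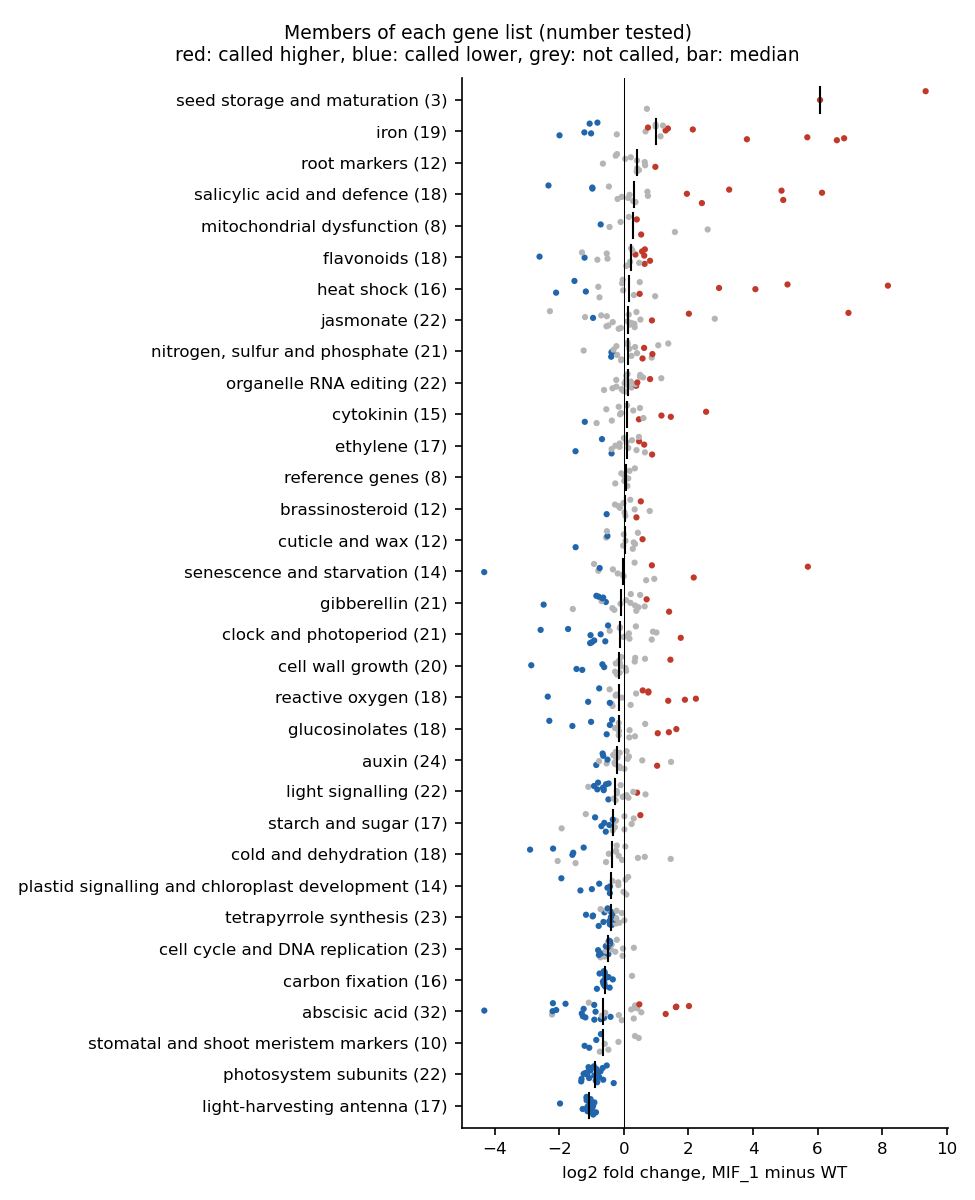
Log2 fold change, MIF_1 minus WT, of each tested member of 33 gene lists, with 1 line per list ordered by its median (black bar) and the number tested in brackets; red points rose, blue points fell and grey points were not called. All members of the antenna and photosystem lists are blue and left of 0, whereas the iron, abscisic acid, salicylic acid and heat shock lists hold points on both sides.

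Clock and light-signalling genes were mostly lower where they were called. Of 21 tested clock and photoperiod genes 9 fell and 1 rose. The labels give no harvest time. PRR9, for a morning-phased pseudo-response regulator, had 38.1 and 28.9 CPM in WT and 6.97 and 4.28 CPM in MIF_1 (-2.58 ± 0.25, adjusted p = 0.000212), and RVE1, for a MYB factor that links the clock to auxin, 58.9 and 57.8 CPM in WT and 21.0 and 14.3 CPM in MIF_1 (-1.73 ± 0.17, adjusted p = 0.000235). CCA1, for the MYB factor at the core of the morning loop, had 199.7 and 189.9 CPM in WT and 104 and 84.8 CPM in MIF_1 (-1.04 ± 0.16, adjusted p = 0.00253). LNK1 and CDF1 changed by -1.03 ± 0.11, adjusted p = 0.000334 and -0.99 ± 0.13, adjusted p = 0.00121. The member that rose was ELF4, of the evening complex, at 0.903 and 0.482 CPM in WT and 1.72 and 3.07 CPM in MIF_1 (1.76 ± 0.48, adjusted p = 0.0318). Of 22 light-signalling genes 9 fell and 1 rose: PIF4, PIF3, PIF5 and PIF1, for phytochrome-interacting factors, changed by -0.63, -0.82, -0.64 and -0.62, SPA4, for a partner of the COP1 ubiquitin ligase, by -0.80 ± 0.11, adjusted p = 0.00185, and HYH, for a relative of HY5, by 0.41 ± 0.11, adjusted p = 0.0332. The clock and photoperiod list held 1, 0, 0 and 0 higher in the fits without 1 library, and the light signalling list held 0, 0, 0 and 0 higher and 7, 2, 4 and 2 lower. The calls of ELF4, PIF5 and PIF1 ended without WT replicate 2, MIF_1 replicate 1 or MIF_1 replicate 2. The call of PIF4 ended without WT replicate 2 or MIF_1 replicate 1. The call of PIF3 ended without WT replicate 2 or MIF_1 replicate 2. The call of HYH ended without any 1 of the 4 WT and MIF_1 libraries. RVE1, LNK1, SPA4 and PIF1 overlap another locus.

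Several genes of cell wall loosening changed, in both directions. EXPA8, for an expansin that loosens cell walls, had 47.5 and 34.7 CPM in WT and 6.18 and 5.11 CPM in MIF_1 (-2.87 ± 0.25, adjusted p = 0.000135). EXPA3 had 42.7 and 43.2 CPM in WT and 14.7 and 16.4 CPM in MIF_1 (-1.46 ± 0.12, adjusted p = 8.89e-05), and EXPA11 22.5 and 21.3 CPM in WT and 7.77 and 10.2 CPM in MIF_1 (-1.29 ± 0.16, adjusted p = 0.00103). Of 24 tested expansins 6 fell and 4 rose, EXPB1 and EXPB3 among the lower with -1.62 and -1.201. At an absolute log2 fold change of at least 1 the family held 1 higher and 4 lower. EXPB4, which rose, had no count in WT and 100 counts in MIF_1, at least 25.4-fold higher against a floor of 3 counts. It passed the low-count filter only through transgenic libraries. Xyloglucan endotransglucosylases, which cut and rejoin wall polymers, rose in 7 of 32 and fell in 3. XTH19 had 21.9 and 18.9 CPM in WT and 82.3 and 91.1 CPM in MIF_1 (2.09 ± 0.19, adjusted p = 0.000139), while XTH32 had 101 and 88.8 CPM in WT and 36.6 and 41.5 CPM in MIF_1 (-1.28 ± 0.13, adjusted p = 0.00036). EXT4, for an extensin, was among the most counted genes that rose, at 167 and 206 CPM in WT and 919 and 905 CPM in MIF_1 (2.29 ± 0.13, adjusted p = 1.26e-05); LOS2, for enolase, had 1031 and 944 CPM in WT and 1490.3 and 1499 CPM in MIF_1 (0.60 ± 0.09, adjusted p = 0.00222). Of 117 loci described by pectin, among them enzymes and their inhibitors, 14 rose and 14 fell. Each share was 12%, beside 7.82% of all genes that rose and 9.85% that fell. In the list of cell wall growth 5 of 20 fell and 1 rose. Expansins held 4, 3, 1 and 0 higher in the fits without 1 library, and xyloglucan endotransglucosylases held 5, 7, 4 and 4 higher and 1, 2, 1 and 1 lower. Pectin enzymes held 8, 10, 3 and 1 higher and 10, 13, 8 and 8 lower in the fits without 1 library, and the cell wall growth list held 0, 1, 0 and 0 higher and 4, 3, 5 and 3 lower.

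Aquaporins, the water channels of plasma and vacuolar membranes, fell in 13 of 28 tested genes and rose in 1. PIP2A had 1794 and 1706 CPM in WT and 1114 and 1117 CPM in MIF_1 (-0.65 ± 0.09, adjusted p = 0.00138), and PIP1A 469 and 444 CPM in WT and 296 and 297 CPM in MIF_1 (-0.62 ± 0.09, adjusted p = 0.00176). TIP2;2, of the vacuolar membrane, had 247 and 244 CPM in WT and 109 and 128 CPM in MIF_1 (-1.05 ± 0.13, adjusted p = 0.000823). The called member that rose was NIP5;1, a boric acid channel of roots, at 27.4 and 18.4 CPM in WT and 44.0 and 46.2 CPM in MIF_1 (0.97 ± 0.17, adjusted p = 0.00401), and NIP6;1, its relative of shoots, had 25.6 and 23.63 CPM in WT and 7.86 and 6.65 CPM in MIF_1 (-1.76 ± 0.15, adjusted p = 0.000125). Summed over the family the level was 8059 and 7851 CPM in WT and 5814 and 6239.5 CPM in MIF_1. Aquaporins held 9, 10, 7 and 10 lower in the fits without 1 library. NIP6;1 overlaps another locus.

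Of 23 cell cycle and DNA replication genes 12 fell, by small amounts (median -0.48), and 0 rose by edgeR (1 at an unadjusted p under 0.05 and 0 by DESeq2). CYCB1;2, for a mitotic cyclin, had 57.3 and 49.4 CPM in WT and 31.1 and 30.4 CPM in MIF_1 (-0.80 ± 0.11, adjusted p = 0.00174), and MCM2, for a subunit of the replicative helicase, 40.4 and 38.3 CPM in WT and 26.9 and 26.6 CPM in MIF_1 (-0.56 ± 0.11, adjusted p = 0.0067). Tubulins and kinesins fell in 15 of 55 and rose in 2, with a median of -0.15; ATK1, for a kinesin of the spindle, had 27.04 and 26.9 CPM in WT and 16.0 and 15.04 CPM in MIF_1 (-0.80 ± 0.14, adjusted p = 0.0049). Of 46 loci described as histones or their modifiers 2 fell. The cell cycle and DNA replication list held 4, 7, 1 and 1 lower in the fits without 1 library, and tubulins and kinesins held 1, 0, 0 and 0 higher and 4, 6, 7 and 0 lower. Histones held 2, 4, 0 and 1 lower in the fits without 1 library. The call of MCM2 ended without MIF_1 replicate 1 or MIF_1 replicate 2; the call of ATK1 ended without MIF_1 replicate 2.

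The 10 tested stomatal and shoot meristem markers held 4 that fell, and 0 rose by edgeR (1 at an unadjusted p under 0.05 and 0 by DESeq2). FAMA, for the factor that ends guard cell division, had 14.4 and 14.8 CPM in WT and 7.27 and 6.65 CPM in MIF_1 (-1.07 ± 0.15, adjusted p = 0.00171). KAT1, for a potassium channel of guard cells, had 18.1 and 19.6 CPM in WT and 8.95 and 7.27 CPM in MIF_1 (-1.21 ± 0.17, adjusted p = 0.00153). TMM and SDD1, which space stomata, changed by -0.71 and -0.85. SPCH, for the factor that starts the lineage, was not called, with 13.4 and 11.7 CPM in WT and 18.4 and 16.3 CPM in MIF_1 (0.46 ± 0.15, adjusted p = 0.0659). The summed level of these markers was 110.3 and 104 CPM in WT and 73.7 and 74.7 CPM in MIF_1, WUS was listed at 0 in all 6 libraries, and CLV3 had 4 counts, all in MIF_1 replicate 2. Their part in the lower photosynthesis genes was not tested. The stomatal and shoot meristem markers list held 4, 4, 2 and 3 lower in the fits without 1 library. The call of TMM ended without MIF_1 replicate 1; the call of SDD1 ended without MIF_1 replicate 1 or MIF_1 replicate 2. 

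Of 18 tested glucosinolate genes 6 fell, 3 rose and 9 were not called. TGG1 and TGG2 encode the myrosinases that split glucosinolates on wounding. TGG2 had 432 and 469.5 CPM in WT and 88.0 and 94.2 CPM in MIF_1 (-2.31 ± 0.13, adjusted p = 9e-06), and TGG1 1411 and 1574 CPM in WT and 722 and 756 CPM in MIF_1 (-1.01 ± 0.10, adjusted p = 0.0002). MYB29, for a factor that switches on aliphatic glucosinolate genes, had 34.4 and 34.3 CPM in WT and 12.1 and 10.7 CPM in MIF_1 (-1.59 ± 0.12, adjusted p = 6.2e-05). These 3 genes were lower in both MIF_1 libraries. The others that fell were MYB34, for a factor of indole glucosinolate synthesis, with -0.43 ± 0.12, adjusted p = 0.0334, and the synthesis genes CYP79F1, with -0.53 ± 0.15, adjusted p = 0.0383, and UGT74B1, with -0.36 ± 0.10, adjusted p = 0.0377. Among the genes that rose, CYP79F2 had 30.4 and 29.4 CPM in WT and 63.7 and 60.2 CPM in MIF_1 (1.05 ± 0.11, adjusted p = 0.000438). IMS2, for a chain elongation enzyme, had 44.9 and 52.9 CPM in WT and 149 and 153 CPM in MIF_1 (1.63 ± 0.11, adjusted p = 3.04e-05). CYP81F2, which modifies indole glucosinolates, had 6.17 and 8.02 CPM in WT and 16.8 and 20.4 CPM in MIF_1 (1.40 ± 0.20, adjusted p = 0.00172). Genes of enzymes of synthesis or modification thus moved both ways where they were called. TGG2 and MYB29 were called higher in MIF_3 than in MIF_1, by 1.26 ± 0.12 for TGG2 (adjusted p = 0.00182) and 0.86 ± 0.12 for MYB29 (adjusted p = 0.00912). In the test of MIF_3 against MIF_1, the call of TGG2 ended without MIF_1 replicate 1; the call of MYB29 ended without MIF_1 replicate 1 or MIF_1 replicate 2. The glucosinolates list held 3, 4, 3 and 3 lower in the fits without 1 library. The call of MYB34 ended without WT replicate 1, MIF_1 replicate 1 or MIF_1 replicate 2; the calls of CYP79F1 and UGT74B1 ended without any 1 of the 4 WT and MIF_1 libraries.

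Of 18 flavonoid genes 6 rose and 2 fell. MYBL2, for a MYB repressor of anthocyanin synthesis, had 47.3 and 56.1 CPM in WT and 8.61 and 8.31 CPM in MIF_1 (-2.61 ± 0.24, adjusted p = 0.000153). TT4, for chalcone synthase, had 834 and 819.7 CPM in WT and 1208 and 1238 CPM in MIF_1 (0.56 ± 0.09, adjusted p = 0.00229). PAL1, for the entry enzyme of phenylpropanoids, had 413 and 372 CPM in WT and 637 and 579.9 CPM in MIF_1 (0.63 ± 0.10, adjusted p = 0.00285). MYBL2 was thus lower, and TT4 and PAL1 higher, in both MIF_1 libraries. LDOX, for an enzyme of anthocyanin synthesis, had 117 and 101 CPM in WT and 174 and 207 CPM in MIF_1 (0.81 ± 0.14, adjusted p = 0.00478). Of 21 genes of nitrogen, sulfur and phosphate 3 rose and 3 fell, and NIA1, for a nitrate reductase, had 181 and 234 CPM in WT and 380.4 and 386 CPM in MIF_1 (0.89 ± 0.14, adjusted p = 0.00284). Starch and sugar genes fell in 6 of 17 and rose in 1, with ADG1, for the small subunit of ADP-glucose pyrophosphorylase, at 433 and 457 CPM in WT and 308 and 296 CPM in MIF_1 (-0.56 ± 0.10, adjusted p = 0.00544). Of 12 tested cuticle and wax genes 2 fell and 1 rose, and CER1, for an enzyme of alkane synthesis, had 79.0 and 81.0 CPM in WT and 24.5 and 32.4 CPM in MIF_1 (-1.49 ± 0.20, adjusted p = 0.00125). The flavonoids list held 3, 3, 3 and 2 higher and 1, 2, 1 and 1 lower in the fits without 1 library, and the nitrogen, sulfur and phosphate list held 3, 2, 2 and 1 higher and 0, 0, 0 and 0 lower. The starch and sugar list held 0, 2, 1 and 0 higher and 3, 6, 3 and 0 lower in the fits without 1 library, and the cuticle and wax list held 0, 0, 0 and 0 higher and 2, 2, 1 and 2 lower. The calls of LDOX and ADG1 ended without MIF_1 replicate 2. TT4 overlaps another locus.

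P450 genes rose in 29 of 174 and fell in 27. CYP702A2, of a P450 group with few known functions, had 1.104 and 0.301 CPM in WT and 53.0 and 65.5 CPM in MIF_1 (6.32 ± 0.34, adjusted p = 8.04e-06). ABC transporter genes rose in 9 of 67 and fell in 12, and ABCG43 had 0.702 and 0.241 CPM in WT and 17.2 and 13.3 CPM in MIF_1 (4.95 ± 0.36, adjusted p = 4.37e-05). UDP-glycosyltransferases, which attach sugars to small molecules, rose in 13 of 104 and fell in 10, with UGT85A2 at 44.6 and 49.1 CPM in WT and 123 and 127 CPM in MIF_1 (1.42 ± 0.11, adjusted p = 7.67e-05). MYB factors fell in 19 of 122 and rose in 3. The bHLH factors rose in 10 of 105 (9.52%) and fell in 11 (10.5%), near the 7.82% and 9.85% of all genes. Of 175 tested F-box genes, of 653 in the family, 3 rose and 11 fell. These shares of 1.71% and 6.29% were below the 7.82% and 9.85% of all genes. At an absolute log2 fold change of at least 1, 3 F-box genes were higher and 3 lower. The log2 fold changes of tested members ranged from -2.43 to 6.92. Of the F-box genes that fell, 3 are given here. AFB3, for an auxin receptor, had 52.4 and 48.4 CPM in WT and 31.6 and 30.7 CPM in MIF_1 (-0.70 ± 0.11, adjusted p = 0.00238). SKP2A, known to act on cell cycle factors, had 26.7 and 30.4 CPM in WT and 16.3 and 16.5 CPM in MIF_1 (-0.80 ± 0.14, adjusted p = 0.00394). AT1G23390, for a kelch repeat F-box protein, had 230.0 and 288 CPM in WT and 83.1 and 100.3 CPM in MIF_1 (-1.50 ± 0.14, adjusted p = 0.000189). All 3 were lower in both MIF_1 libraries. Cytochrome P450s held 20, 21, 13 and 14 higher and 17, 11, 8 and 10 lower in the fits without 1 library, and ABC transporters held 5, 9, 3 and 4 higher and 7, 7, 5 and 4 lower. UDP-glycosyltransferases held 7, 10, 6 and 6 higher and 8, 8, 3 and 5 lower in the fits without 1 library, and MYB factors held 2, 4, 1 and 0 higher and 12, 12, 8 and 9 lower. BHLH factors held 6, 9, 4 and 6 higher and 9, 8, 5 and 5 lower in the fits without 1 library, and F-box proteins held 2, 2, 1 and 0 higher and 5, 8, 6 and 4 lower. AFB3 overlaps another locus. 

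In the remaining families, GDSL lipases rose in 9 of 61 and fell in 12, and late embryogenesis proteins rose in 12 of 65 and fell in 4. Lipid-transfer proteins rose in 7 of 66 (10.6%) and fell in 7 (10.6%). SAUR genes rose in 4 of 56 (7.14%) and fell in 5 (8.93%). The shares of both families were near the 7.82% that rose and 9.85% that fell among all genes. Terpene synthases rose in 1 of 26 and fell in 1. Of 7 plastid ribosomal proteins matched by name 1 rose and 1 fell, and of 9 cytosolic ones 0 were called by edgeR (3 at an unadjusted p under 0.05, 0 by DESeq2). Of 14 transposable element genes 0 were called by edgeR (0 at an unadjusted p under 0.05, 0 by DESeq2). GDSL lipases held 5, 7, 5 and 5 higher in the fits without 1 library, and late embryogenesis proteins held 9, 8, 8 and 4 higher and 4, 3, 1 and 3 lower. Lipid-transfer proteins held 7, 5, 4 and 4 higher and 6, 4, 3 and 6 lower in the fits without 1 library, and SAUR-like auxin proteins held 1, 2, 0 and 1 higher and 1, 5, 1 and 1 lower. Terpene synthases held 0, 2, 0 and 0 lower in the fits without 1 library, and plastid ribosomal proteins held 1, 0, 0 and 0 higher and 0, 1, 0 and 0 lower.

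Some genes with few or no counts in WT were counted in MIF_1. Of the genes that rose, 43 had no count in either WT library and 35 had 1 to 3 counts in all of WT. Their folds are given over pooled counts, as lower bounds against a floor of 3 counts over the WT group or as ratios with exact 95% intervals that cover counting error only. Genes this low in WT passed the low-count filter only through transgenic libraries, so their direction partly follows from the filter. Among genes that fell, 3 had no count in either MIF_1 library. PEN3 here is AT5G36150, for a putative pentacyclic triterpene synthase, and not the ABC transporter of the same name; it had 0.150 and 0 CPM in WT and 77.9 and 82.0 CPM in MIF_1, with 3 counts in WT and 3828 in MIF_1, a ratio of 973 (333 to 4720). AT4G36700, for a cupin, had 0.0502 and 0 CPM in WT and 28.8 and 34.6 CPM in MIF_1, a ratio of 1160 (208 to 45800). AT1G07373, an RNA gene without a coding sequence, had no count in WT and 12.1 and 14.3 CPM in MIF_1, at least 161-fold higher. AT4G39610, for a protein related to MIZU-KUSSEI, had 9.33 and 10.14 CPM in MIF_1, at least 118-fold higher. Of genes known from flowers and embryos, EXL6, for an extracellular lipase of the pollen coat, was at least 65.4-fold higher, at 4.83 and 5.90 CPM, and PEI1, for a zinc finger protein of embryos, rose from 1 count to 331, a ratio of 253 (45.0 to 10000). SESA5, for a seed storage albumin, had 4.75 and 2.49 CPM in MIF_1 and was at least 44.0-fold higher. CYP702A3 had 4.33 and 3.53 CPM, at least 47.8-fold higher. The call of AT1G07373 ended without MIF_1 replicate 2; the call of SESA5 ended without MIF_1 replicate 1.

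Seed storage genes did not act as a group across the MIF_1 libraries. Of 17 members 3 passed the filter, and 2 of these, SESA2 and SESA5, rose. Both passed it only through transgenic libraries, so their direction partly follows from the filter. SESA2 had 0.201 and 0.121 CPM in WT and 9.91 and 12.96 CPM in MIF_1 (6.08 ± 0.86, adjusted p = 0.00173). Of the members that did not pass, CRA1, for a cruciferin, had 5 and 4 counts in WT, none in MIF_1 replicate 1 and 146 in MIF_1 replicate 2. OLEO1, for an oil body protein, had 6 and 2 counts in WT, none in MIF_1 replicate 1 and 66 in replicate 2, and CRU3 and OLEO2 had none in replicate 1 and 27 and 26 in replicate 2. MIF_1 replicate 2 alone thus held most of the counts of these 4 genes, and no test covers them. SESA3 and LEC1 were listed at 0 in all 6 libraries. The call of SESA5 ended without MIF_1 replicate 1.

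Among the largest falls was that of NAP, for a NAC factor that drives leaf senescence, at 22.02 and 21.6 CPM in WT and 0.588 and 1.58 CPM in MIF_1 (-4.32 ± 0.34, adjusted p = 7.67e-05). AIR1, named for its induction by auxin in root cultures, had 18.8 and 13.6 CPM in WT and 0.798 and 0.831 CPM in MIF_1 (-4.31 ± 0.43, adjusted p = 0.000246). AT3G27250, of unknown function, had 15.9 and 11.6 CPM in WT and 0.882 and 1.16 CPM in MIF_1 (-3.75 ± 0.38, adjusted p = 0.00029). AT3G59930 and AT5G33355 are described with the defensins. Of 14 tested senescence and starvation genes 3 rose and 2 fell, and SAG13 moved opposite to NAP, at 0.0502 and 1.09 CPM in WT and 27.1 and 28.1 CPM in MIF_1 (5.70 ± 1.36, adjusted p = 0.0186). Plastid-encoded ATCG00020 and ATCG00720 were also among the largest falls. ATCG00020 had 37.4 and 442 CPM in WT and 18.9 and 16.6 CPM in MIF_1, and ATCG00720 1.35 and 8.92 CPM in WT and 0.420 and 0.582 CPM in MIF_1. In both, WT replicate 2, the library with the larger share of plastid counts, was far above WT replicate 1. The rRNA locus AT3G41768 was among the most counted, with 4692 and 11423 CPM in WT and 4405 and 2827 CPM in MIF_1 and the same high WT replicate 2. The senescence and starvation list held 1, 3, 1 and 0 higher and 3, 2, 2 and 1 lower in the fits without 1 library. The calls of AT5G33355 and ATCG00020 ended without MIF_1 replicate 1 or MIF_1 replicate 2. The call of SAG13 ended without any 1 of the 4 WT and MIF_1 libraries. The calls of ATCG00720 and AT3G41768 ended without WT replicate 2, MIF_1 replicate 1 or MIF_1 replicate 2. AIR1 overlaps another locus.

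MIF_3 seedlings were set against MIF_1 to show where the sets of the same construct differ. Of 20438 genes 360 were called (1.76%), 97 higher in MIF_3 (0.475%) and 263 lower (1.29%). Without MIF_1 replicate 1 these were 2 and 18, without MIF_1 replicate 2 12 and 41, and without MIF_3 replicate 1 or 2 239 and 189 higher. This comparison shares the MIF_1 libraries with the one against WT, so values are given side by side. PR1 had 0 and 0.603 CPM in WT, 16.4 and 23.3 CPM in MIF_1 and 1.54 and 1.41 CPM in MIF_3, a difference MIF_3 minus MIF_1 of -3.75 ± 0.43 (adjusted p = 0.00365). RLP23 followed with 1.42 and 1.57 CPM in MIF_3 (-3.46 ± 0.35; adjusted p = 0.00202), ENODL1, for an early nodulin-like protein, with 10.3 and 6.98 CPM in MIF_1 and 0.987 and 0.564 CPM in MIF_3, and EXL6 with 0.711 and 0.564 CPM in MIF_3. These 4 genes thus lay far closer to WT in MIF_3 than in MIF_1. Of the 18 tested salicylic acid and defence genes, 8 were called lower in MIF_3 than in MIF_1 and 0 higher. ACS6 was lower still in MIF_3, at 14.4 and 14.3 CPM (-1.92 ± 0.14; adjusted p = 0.000331), as was AT4G27657, of unknown function, at 0.711 and 1.33 CPM. In the other direction, KIN1, for a cold-induced protein, had 24.7 and 16.8 CPM in WT, 5.25 and 8.81 CPM in MIF_1 and 24.7 and 27.8 CPM in MIF_3 (1.90 ± 0.25; adjusted p = 0.00546). The subtilase gene AT4G21650 had 34.5 and 36.5 CPM in WT and 5.13 and 6.23 CPM in MIF_1, and 23.4 and 24.9 CPM in MIF_3. FAMA and TIP2;2 also lay near WT in MIF_3, at 14.5 and 13.9 and 241 and 192 CPM, and MIF_3 exceeded MIF_1 by 1.03 ± 0.15 for FAMA (adjusted p = 0.0101) and 0.87 ± 0.13 for TIP2;2 (adjusted p = 0.0105). In the test of MIF_3 against MIF_1, the calls of PR1, RLP23, EXL6, FAMA and TIP2;2 ended without MIF_1 replicate 1 or MIF_1 replicate 2; the calls of ENODL1 and KIN1 ended without MIF_1 replicate 1. The MIF_3 against MIF_1 calls of ACS6, AT4G21650 and AT4G27657 held in all 6 fits without 1 library. In the test of MIF_1 against WT, the call of AT4G27657 ended without WT replicate 2, MIF_1 replicate 1 or MIF_1 replicate 2. RLP23 overlaps another locus.

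**Figure D4:**
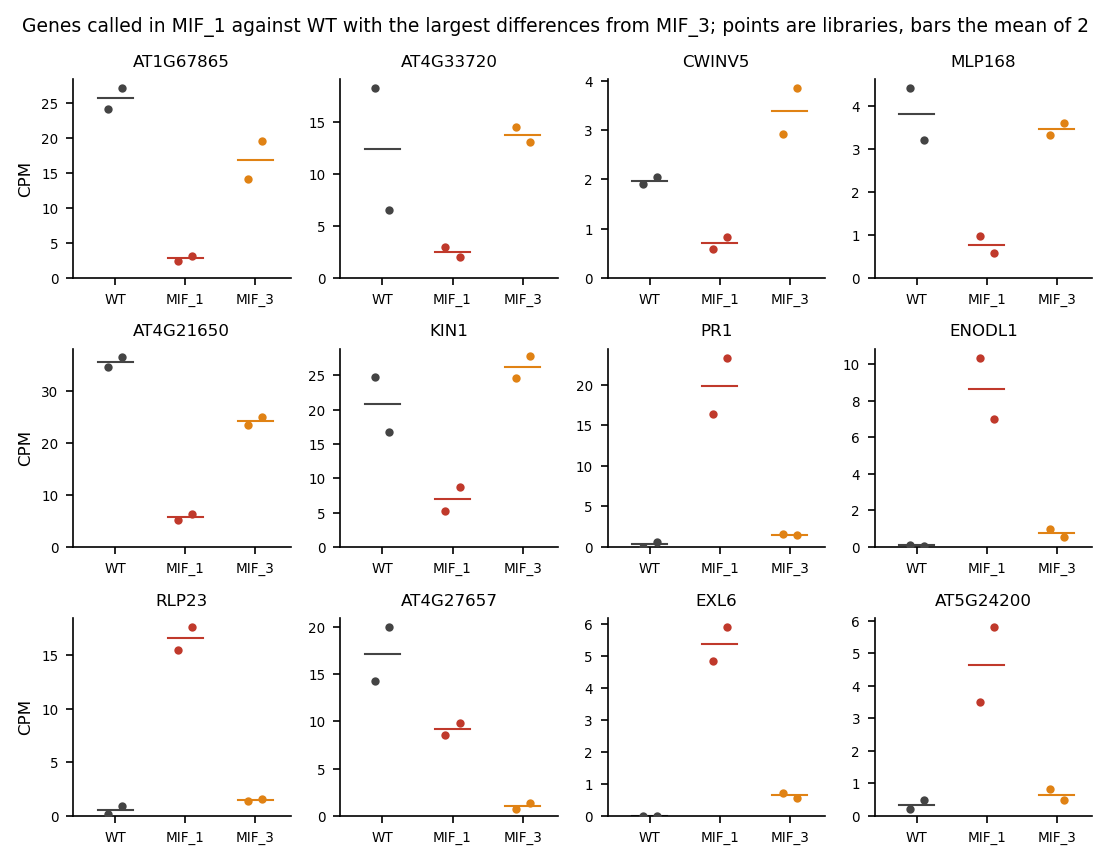
Level in CPM, on linear axes from 0, of the 12 genes called in MIF_1 against WT that differed most between MIF_3 and MIF_1; points are libraries and bars the means of 2. In AT1G67865, AT4G33720, CWINV5, MLP168, AT4G21650 and KIN1 the MIF_1 libraries lie below the other 4, in PR1, ENODL1, RLP23, EXL6 and AT5G24200 they lie above them, and in AT4G27657 they lie between WT and MIF_3.

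Promoter windows, 250 bases before to 50 after the start of a gene in RefSeq TAIR10.1, were searched on both strands for 13 motifs in 20390 tested genes. The G-box CACGTG stood in 14.2% of the windows of genes that fell and 6.20% of those that rose, beside 8.73% of all tested. ACGTGGC, which overlaps the G-box in part of its matches, stood in 9.35%, 3.50% and 4.67%. The W-box form TTGACT stood in 28.7% of windows of genes that rose and 18.7% of those that fell, beside 21.9% of all tested, and the form TTGACC in 17.1%, 12.6% and 14.4%. The telobox AAACCCTA stood in 8.64% of the former, 2.60% of the latter and 5.44% of all. Among genes that rose at least 2-fold the telobox share was only 3.55%, below that of all tested genes. By group, the G-box stood in 4 of 17 antenna windows and 8 of 19 iron windows, ACGTGGC in 3 of 32 abscisic acid windows, and TTGACT in 7 of 18 salicylic acid windows. These shares describe letters in a window and were not tested.

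**Figure D5:**
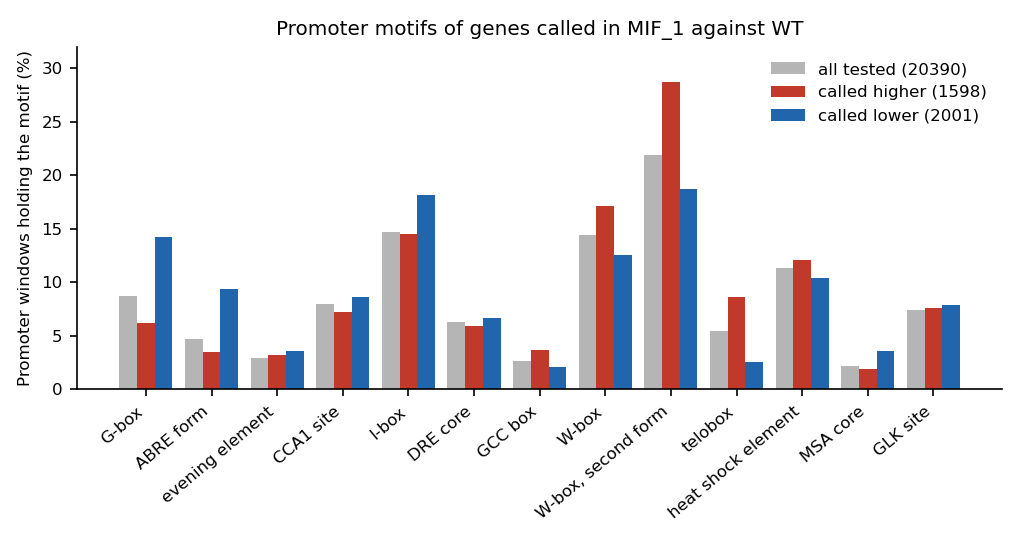
Percent of promoter windows that hold each of 13 motifs, for all 20390 tested genes with a window (grey), the 1598 that rose (red) and the 2001 that fell (blue); bars start at 0. The G-box bar is highest for genes that fell, at 14.2%, and the bar of the second W-box form is highest for genes that rose, at 28.7%.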

How the data were processed

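Poly(A) RNA of whole Arabidopsis seedlings was sequenced in 6 libraries. The authors deposited 1 count table, whole-number reads per locus, not normalized; fastp, STAR, HTSeq and the build TAIR10 are named in the submitters' processing notes, with versions and strand setting not given in the sources used here. No column of another sample was in the table (0). Counts were tested with edgeR 4.0.16 (limma 3.58.1, R 4.3.3): filterByExpr with a minimum count of 10 and total of 15, TMM factors, 1 coefficient per group over all 6 libraries, and quasi-likelihood tests with Benjamini-Hochberg adjustment over 20438 genes. All p-values named adjusted are from this fit, and the error of a log2 fold change is its size divided by the square root of the F statistic. CPM used TMM-scaled library sizes. Bounds and intervals cover counting error only, since the labels name no molecular identifiers.

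Tried as alternatives were DESeq2 1.42.0, upper-quartile and RLE factors, a stricter filter and none, removal of organelle and rRNA loci, a replicate block, the 4 libraries alone, an adjusted p below 0.01, a log2 fold change of at least 1, and leaving out each library. The scripts were tested on simulated data. Gene symbols came from RefSeq TAIR10.1, matched by locus. Genes were named by rule (the 12 largest changes, 8 smallest p and 8 most counted in each direction, the 12 that differ most from MIF_3, and leading members of each list and family), and other list members by role, chosen after their values were seen. The comparison, lists and families were chosen with earlier results of these data known. The 2 libraries of each group were not copies, since their counts differed beyond counting noise (chi-square per degree of freedom 11.4 in WT, 9.22 in MIF_1 and 24.8 in MIF_3).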

Additional observations from a re-analysis of the deposited data

Results flagged for a closer look

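The effects of the transgenic sets differed in genes called in MIF_1 against WT, by edgeR's test of MIF_3 against MIF_1 (adjusted p below 0.05), of which the 6 largest differences each way are given. Log2 differences were 2.59 for AT1G67865, an uncharacterised gene, 2.47 for AT4G33720, of the PR1 superfamily, 2.25 for CWINV5, a cell wall invertase gene, 2.15 for MLP168, 2.09 for the subtilase gene AT4G21650 and 1.90 for KIN1. They were -3.75 for PR1, -3.47 for ENODL1, -3.46 for RLP23, -3.17 for AT4G27657, -3.06 for EXL6 and -2.81 for the hydrolase gene AT5G24200. The mean level of AT1G67865 was 25.7 CPM in WT, 2.80 CPM in MIF_1 and 16.9 CPM in MIF_3. AT5G24200 had means of 0.342, 4.65 and 0.656 CPM in the same order. In the test of MIF_3 against MIF_1, the calls of AT4G33720, MLP168, PR1, RLP23 and EXL6 ended without MIF_1 replicate 1 or MIF_1 replicate 2; the calls of CWINV5 and AT5G24200 ended without MIF_1 replicate 1, MIF_1 replicate 2 or MIF_3 replicate 2; the calls of KIN1 and ENODL1 ended without MIF_1 replicate 1. The MIF_3 against MIF_1 calls of AT1G67865, AT4G21650 and AT4G27657 held in all 6 fits without 1 library. In the test of MIF_1 against WT, the call of AT4G33720 ended without MIF_1 replicate 2; the call of CWINV5 ended without any 1 of the 4 WT and MIF_1 libraries; the call of AT4G27657 ended without WT replicate 2, MIF_1 replicate 1 or MIF_1 replicate 2. Both comparisons share the MIF_1 libraries. No group held enough samples for a test of single outlying samples.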

How the results depend on the processing

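Genes that rose and fell in MIF_1 against WT numbered between 1382 and 1804 and between 1745 and 2219 under DESeq2, other scalings and filters, the replicate block and the 4 libraries alone. At an adjusted p below 0.01 they were 665 and 910, and at an absolute log2 fold change of at least 1 they were 648 and 515. Leaving out 1 library gave 546 to 1797 higher and 776 to 2169 lower genes. MIF_3 against MIF_1, with 97 higher and 263 lower genes, gave 263 and 479 with DESeq2, 242 and 445 without a filter, 16 and 85 at 0.01, and 43 and 134 at the log2 limit. Leaving out 1 library moved it between 2 and 239 higher and between 18 and 306 lower genes. The causes were not tested.

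Of 275 named calls, DESeq2 ended 6, the replicate block 12, and the fits without 1 WT or MIF_1 library 40 to 80, and none of these reversed. Among differences MIF_3 minus MIF_1 that were not called, the sign turned with the MIF_3 library left out. They ranged from -1.81 to 1.29 for AT1G07373, from -1.64 to 1.205 for BHLH100, from -1.78 to 1.16 for BHLH38, from -1.17 to 1.17 for BHLH39 and from -1.70 to 0.74 for AT4G36700.

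Correlations of replicate differences between groups were -0.04, -0.04 and 0.04, so no common shift by replicate number was seen. They cannot show whether libraries of the same replicate number were handled together. The replicate block gave 1382 higher and 1745 lower genes. With 2 libraries per group, calls near the threshold rest on single libraries, and genes with few counts in WT have uncertain folds.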
